A study of Mus musculus with 10 samples.

Results

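The 7 protein-coding UGT2B genes UGT2B4, UGT2B7, UGT2B10, UGT2B11, UGT2B15, UGT2B17 and UGT2B28 were followed across 10 human prostate tumours grown in mice. They were chosen by gene symbol as the UGT2B members of the androgen glucuronidation pathway, and are 7 of the 58735 genes in the deposited count table. All 7 were found, 5 passed the filter on low counts and 2, UGT2B4 and UGT2B7, were too scarce for it. The 7 genes together held 14504 counts.

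The tumours were LNCaP, an androgen-sensitive human prostate cancer line, grown under the skin of NSG mice (NOD.Cg-Prkdcscid Il2rgtm1Wjl/SzJ), which lack their own T, B and NK cells. In the IL-15 group (5 tumours) the mice were given sipuleucel-T (sip-T), a product of human blood cells, in 100 µl into the peritoneum together with 1 µg of rhIL-15, the human cytokine on which memory T and NK cells depend. In the control group (5 tumours) they were given control sip-T in the same volume. The sample titles name sipuleucel-T for both groups, with IL-15 added for the IL-15 group. Both groups had 4 weekly injections and tumours were removed on day 7 after the last. The design text also mentions cells treated with IL-15 and sham dosing with vehicle, so treatment of the cells and injection of the cytokine cannot be told apart. The age of the mice is not given in the labels, nor whether tumours of a group shared a cell donor, and LNCaP is a single line, so the spread below is that between 10 tumours of 1 line.

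UGT2B enzymes sit in the endoplasmic reticulum and transfer glucuronic acid from UDP-glucuronate to steroids, bile acids and drugs, which makes them water soluble and ends their action. In the prostate UGT2B15 and UGT2B17 conjugate dihydrotestosterone, testosterone and their metabolites and so inactivate androgens. In cultured LNCaP cells both genes are known to be repressed by androgen.

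The genes lie within 0.989 Mb on chromosome 4 (hg38), 3 on the plus and 4 on the minus strand, with other genes between them. UGT2B17 (ENSG00000197888) spans chr4:68537184-68568527 on the minus strand and UGT2B15 (ENSG00000196620) chr4:68646630-68670628 on the minus strand. UGT2B10 (ENSG00000109181) follows at chr4:68815993-68831196 on the plus strand and UGT2B7 (ENSG00000171234) at chr4:69051363-69112987 on the plus strand. UGT2B11 (ENSG00000213759) is at chr4:69199951-69214731 on the minus strand, UGT2B28 (ENSG00000135226) at chr4:69280499-69295050 on the plus strand and UGT2B4 (ENSG00000156096) at chr4:69480165-69526014 on the minus strand. These are coordinates of whole genes in the deposited table. The genes are close paralogs, and no source used here says how reads that map to several places were counted, so the division of reads among them, above all between UGT2B15 and UGT2B17, is uncertain. UGT2B11 also overlaps an antisense gene, AC111000.4, which had 10 counts in all.

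Total counts per library ran from 13560224 to 19324056. A floor of 3 counts stood at 0.159 to 0.221 CPM, the count relative to the TMM-scaled library total, for counting error only. IL-15 tumour 2 and control tumour 4 had the highest totals, 19324056 and 17467130 counts. All 9 LNCaP and prostate luminal markers fixed for the label passed the filter, with KLK3 at 3330 to 7450 CPM. Summed CPM of 12 T cell markers ran from 5.21 to 42.1 in IL-15 tumours and from 3.74 to 18.0 in control tumours. Of the 7 hepatocyte markers, which bear on UGT2B genes because the liver expresses them strongly, only TTR passed the filter. The summed hepatocyte markers were 3.68 to 15.9 CPM in IL-15 tumours and 1.23 to 7.04 CPM in control tumours, ALB did not exceed 1.52 CPM and APOC3 had 1 count in all. Correlations of the T cell and hepatocyte sums with the members are given below, although the hepatocyte sum was mostly TTR. The part of T cells and hepatocytes in the UGT2B values was not otherwise tested. In bulk RNA, fewer cells that express a gene and less of its RNA per cell cannot be told apart.

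UGT2B17 was the most abundant member. It stood at 69.0, 139.6, 34.4, 36.4 and 10.2 CPM in IL-15 tumours 1 to 5, and at 32.3, 9.18, 32.6, 124.6 and 14.9 CPM in control tumours 1 to 5. IL-15 tumour 2 and control tumour 4 were far above their groups, IL-15 tumour 5 and control tumour 2 were lowest, and the groups overlapped over nearly their whole range. The highest tumour had 15.2 times the CPM of the lowest.

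UGT2B15, the other major androgen-conjugating enzyme, followed the same order of tumours in most places. Its levels were 35.5, 103.1, 15.04, 21.5 and 7.57 CPM in IL-15 tumours and 14.5, 7.28, 16.8, 58.3 and 10.8 CPM in control tumours. Again IL-15 tumour 2 and control tumour 4 were highest and the groups overlapped, with a 14.2-fold range over all tumours.

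UGT2B10, known for the N-glucuronidation of amines such as nicotine, was at 1.72, 17.4, 1.497, 0.932 and 0.147 CPM in IL-15 tumours, against 1.22, 1.70, 1.64, 6.51 and 1.07 CPM in control tumours. The lowest value rests on 2 counts. Apart from IL-15 tumours 2 and 5 and control tumour 4, the tumours lay close together at about the same level in both groups. IL-15 tumour 2 carried 328 counts, whereas the 4 others of its group had 2 to 25. Control tumour 4 carried 112 counts, whereas the 4 others of its group had 15 to 24.

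UGT2B11 and UGT2B28, both of which have been described in steroid target tissues including the prostate, were spread in another order. UGT2B11 had 2.14, 5.85, 1.44, 4.09 and 0.0735 CPM in IL-15 tumours, and 5.31, 10.1, 0.342, 0.814 and 0.286 CPM in control tumours. Its highest value was in control tumour 2, the tumour with the least UGT2B17, and its lowest, in IL-15 tumour 5, rests on 1 count. UGT2B28, which also conjugates androgens, had 0.896, 2.29, 0.250, 0.860 and 0.221 CPM in IL-15 tumours, and 2.11, 2.75, 0.274, 1.45 and 0.215 CPM in control tumours. Control tumours 2 and 1 and IL-15 tumour 2 were highest for it, and the groups overlapped.

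UGT2B4 and UGT2B7, enzymes of the liver that act on bile acids (UGT2B4) and on opioids and oestrogens (UGT2B7), were near the floor. UGT2B4 had 6, 7, 9, 42 and 0 counts in IL-15 tumours and 11, 0, 0, 7 and 7 counts in control tumours. UGT2B7 had 1, 35, 4, 3 and 0 counts in IL-15 tumours and 0, 9, 6, 6 and 2 counts in control tumours. UGT2B4 was carried mainly by IL-15 tumour 4 and UGT2B7 by IL-15 tumour 2, so that a single tumour held most of the group's reads for each. A 0 in these libraries allows a level up to the floor of 3 counts.

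**Figure D1:**
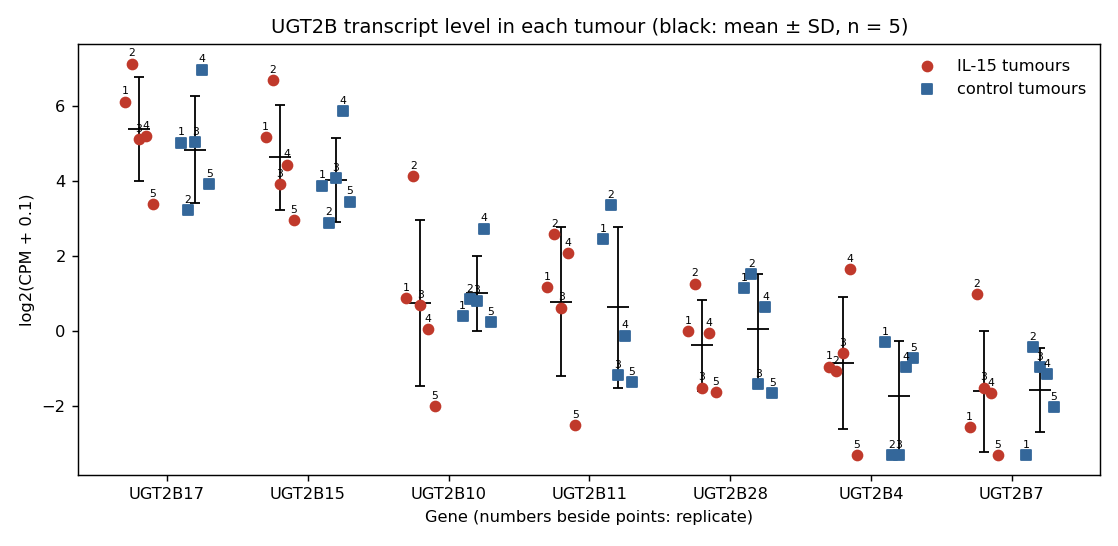
The vertical axis gives log2(CPM + 0.1) of each UGT2B gene, the points are single tumours numbered by replicate, and the black marks are the mean ± SD of the 5 tumours of each group. The groups overlap for all 7 genes, and IL-15 tumour 2 and control tumour 4 lead their groups for UGT2B17, UGT2B15 and UGT2B10.

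Levels of different genes were compared per length, as deposited FPKM (fragments per kilobase of gene, relative to the library total), over all 10 tumours. UGT2B17 averaged 21.98 ± 20.5 FPKM and UGT2B15 12.7 ± 13.3 FPKM. UGT2B10 averaged 1.59 ± 2.46 FPKM, UGT2B11 1.18 ± 1.27 FPKM and UGT2B28 0.560 ± 0.477 FPKM (SD, n = 10 each). UGT2B4, at 0.214 ± 0.318 FPKM, and UGT2B7, at 0.158 ± 0.222 FPKM, closed the order.

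Only the upper steps of this order held within tumours, by a two-sided exact sign-flip permutation test on log2(FPKM + 0.1), adjusted over the 6 neighbouring pairs. The order was taken from the same 10 tumours, so the pairs were not chosen apart from the values tested. An exact permutation p of 0.00195 is the smallest this test can give here. The division of reads between UGT2B17 and UGT2B15 is uncertain, as given above. UGT2B17 exceeded UGT2B15 in 10 of 10 tumours, by 0.77 ± 0.33 on the log2 scale (SD; exact permutation p = 0.00195, adjusted p = 0.00586). UGT2B15 exceeded UGT2B10 in 10 of 10 tumours, by 3.23 ± 0.78 (exact permutation p = 0.00195, adjusted p = 0.00586). Below them, UGT2B10 was above UGT2B11 in 6 of 10 tumours and UGT2B11 above UGT2B28 in 7 of 10 (adjusted exact permutation p = 0.649 and 0.146). UGT2B28 was above UGT2B4 in 7 of 10 tumours and UGT2B4 above UGT2B7 in 6, with adjusted exact permutation p = 0.082 and 0.711, so these neighbours did not differ beyond their spread.

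The summed FPKM of the 7 genes is a measure of the whole family. It was 47.4, 118.5, 22.7, 28.7 and 8.04 in IL-15 tumours and 24.1, 13.6, 23.2, 85.4 and 12.1 in control tumours, with means of 45.1 ± 43.4 and 31.7 ± 30.5 FPKM (SD, n = 5 each). The IL-15 minus control difference of the mean log2 summed FPKM was 0.38, but -0.10 without IL-15 tumour 2, 0.84 without control tumour 4 and 0.87 without IL-15 tumour 5, so no direction is given. UGT2B17 and UGT2B15 together made up 87.5% to 97.4% of it in IL-15 tumours and 53.2% to 94.8% in control tumours. The low end of the control range was a single tumour, control tumour 2, where UGT2B11 held 29.0% and UGT2B28 10.1% of the family's FPKM. The next lowest share in either group was 83.9%, in control tumour 1.

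The same enzymes were then compared between IL-15 and control tumours. None of the UGT2B genes passed the test, the values of the groups overlapped for all 7, and the intervals were wide. UGT2B17 averaged 57.9 ± 50.2 CPM in IL-15 tumours and 42.7 ± 46.9 CPM in control tumours (SD, n = 5 each). Its log2 fold change, IL-15 over control, was 0.44 ± 0.83 (SE; 95% interval -1.43 to 2.31; edgeR quasi-likelihood test, adjusted p = 0.937). UGT2B15 averaged 36.5 ± 38.6 CPM in IL-15 tumours and 21.5 ± 20.9 CPM in control tumours, a log2 fold change of 0.76 ± 0.79 (interval -1.02 to 2.54; edgeR adjusted p = 0.876).

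UGT2B10 averaged 4.35 ± 7.34 CPM in IL-15 tumours and 2.43 ± 2.30 CPM in control tumours, with a log2 fold change of 0.84 ± 1.03 (interval -1.44 to 3.12; edgeR adjusted p = 0.898). UGT2B11 averaged 2.72 ± 2.27 CPM in IL-15 tumours and 3.37 ± 4.31 CPM in control tumours, with a log2 fold change of -0.30 ± 1.05 (interval -2.63 to 2.03; edgeR adjusted p = 0.972). UGT2B28 averaged 0.902 ± 0.838 CPM in IL-15 tumours and 1.36 ± 1.12 CPM in control tumours, with a log2 fold change of -0.56 ± 0.73 (interval -2.16 to 1.03; edgeR adjusted p = 0.905).

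For the scarce members a two-sided exact permutation test enumerated every split of the 10 tumours into 5 and 5, and its smallest possible p is 0.00794. UGT2B4 averaged 0.872 ± 1.21 CPM in IL-15 tumours and 0.322 ± 0.313 CPM in control tumours (exact permutation p = 0.476). UGT2B7 averaged 0.479 ± 0.779 CPM in IL-15 tumours and 0.308 ± 0.246 CPM in control tumours (exact permutation p = 0.897).

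Of the 5 tested members, 0 passed an adjusted p of 0.05 with edgeR, where 0% of the 16913 tested genes did. At an unadjusted p under 0.05 there were 0 of 5 members, against 6.46% of all tested genes (1092). DESeq2 called 0 of the 4 members to which it gave an adjusted p, and 7 genes in all, 0.0414%. CPM values of the groups did not overlap for 0 of the 5 tested members and for 0.662% of all tested genes. The 95% intervals of UGT2B17, UGT2B15 and UGT2B10 each include a 4-fold higher and a 2-fold lower level in IL-15 tumours.

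Single tumours decided the sign of the estimates for 4 of the 5 tested genes. Without IL-15 tumour 2 the log2 fold change of UGT2B17 was -0.20, that of UGT2B15 -0.12 and that of UGT2B10 -1.17. Without control tumour 4 the same 3 estimates were 1.38, 1.57 and 1.64. For UGT2B11 the estimate was 0.68 without control tumour 2 and 0.01 without IL-15 tumour 5. UGT2B28 stayed below 0 in every such fit, from -1.28 to -0.16. No member passed the threshold in any of these fits.

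**Figure D2:**
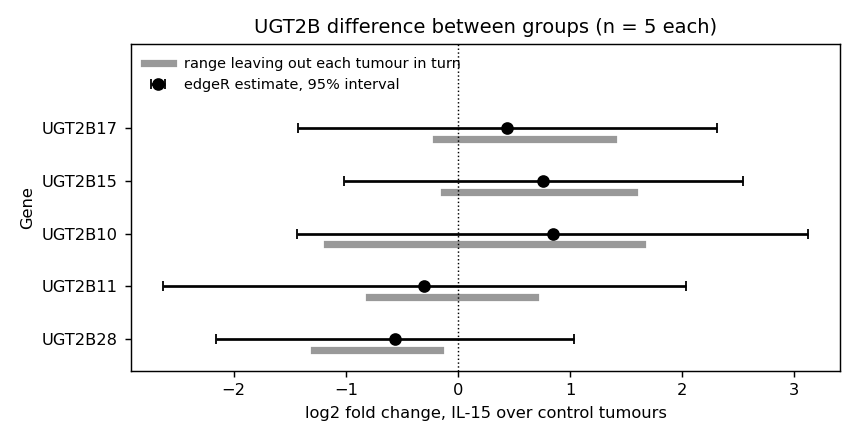
Points give the log2 fold change of IL-15 over control tumours for the 5 tested UGT2B genes with 95% intervals, and grey bars the range of the estimate when each tumour is left out in turn. Every interval includes 0, and the grey bars cross 0 for all genes but UGT2B28, whose range is -1.28 to -0.16.

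Variation within the groups was large for all 5 tested members. The within-group SD of log2 CPM was 1.41 for UGT2B17, 1.27 for UGT2B15, 1.68 for UGT2B10, 2.01 for UGT2B11 and 1.30 for UGT2B28, whereas the median of the same within-group SD over all tested genes was 0.34. Of the 16913 tested genes, 259 had a larger SD than UGT2B17 and 49 a larger SD than UGT2B11. Against genes within 0.5 log2 CPM of the same mean level, UGT2B17 was at percentile 99.7 of this SD and UGT2B15 at percentile 98.95. UGT2B10 was at percentile 98.3, UGT2B11 at 99.4 and UGT2B28 at 95.8 of genes of like level.

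Correlations among the 5 tested members were all positive, with r from 0.24 to 0.97. Over the 10 tumours, UGT2B17 and UGT2B15 varied together, with a Pearson r of 0.97 and a Spearman rho of 0.99 on log2 CPM (permutation p = 1e-05 for each, the smallest that 100000 permutations can give). The adjusted permutation p over 20 relations was 2e-04, and r was 0.97 both without the 2 tumours farthest from the median and after centring within groups. UGT2B11 and UGT2B28 formed a second pair, with r = 0.85 and rho = 0.88 (permutation p = 0.00417 and 0.00158, adjusted 0.0231 and 0.0158). Without IL-15 tumour 5 and control tumour 2, r for this pair was 0.77 over 8 tumours and no longer passed (exact permutation, adjusted p = 0.355). The division of reads among these paralogs is uncertain, and its part in the correlations of both pairs was not tested.

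Between these pairs r was lower and did not pass. UGT2B17 had r = 0.24 with UGT2B11 and r = 0.36 with UGT2B28, and UGT2B15 had r = 0.26 with UGT2B11 and r = 0.41 with UGT2B28 (adjusted permutation p from 0.479 to 0.645). The difference between the strong and the weak correlations was not tested. Tumours went both ways: control tumour 2 had the lowest UGT2B17 and the highest UGT2B11, whereas IL-15 tumour 2 was high and IL-15 tumour 5 low for both.

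UGT2B10 had r = 0.80 with UGT2B17 and r = 0.85 with UGT2B15 (permutation p = 0.00462 and 0.00148, adjusted 0.0231 and 0.0148). The ranks agreed less, with rho = 0.61 and 0.62 (adjusted permutation p = 0.189 for both). Without IL-15 tumour 2 and control tumour 4, r was 0.49 and 0.46 over 8 tumours (exact permutation, adjusted p = 0.896), so these relations rest on those tumours. With UGT2B11 and UGT2B28, UGT2B10 had r = 0.45 and 0.58 (adjusted permutation p = 0.479 and 0.238).

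**Figure D3:**
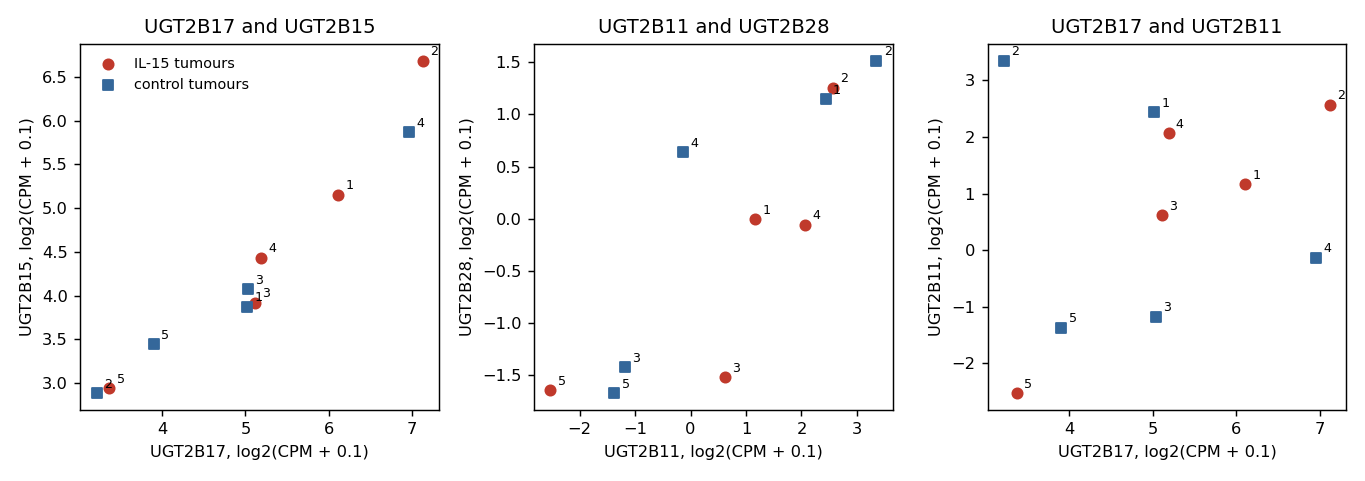
Each panel sets log2(CPM + 0.1) of a pair of UGT2B genes against each other, with a point per tumour numbered by replicate. UGT2B17 and UGT2B15 lie along a line (r = 0.97), UGT2B11 and UGT2B28 do so more loosely (r = 0.85), and UGT2B17 and UGT2B11 are scattered (r = 0.24).

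The share of UGT2B15 in the reads of UGT2B15 plus UGT2B17 ran from 30.4% to 44.2%. How far reads divided between these paralogs enter this share was not tested. UGT2B15 held 34.0%, 42.5%, 30.4%, 37.1% and 42.6% of the reads of the pair in IL-15 tumours, and 31.05%, 44.2%, 33.9%, 31.9% and 42.1% in control tumours. The means were 37.3% ± 5.3 and 36.6% ± 6.1 (SD, n = 5 each). Because the deposited lengths of both genes are 2077 bases, this share is also that per length.

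The 95% Wilson intervals of this share were separate in 21 of 45 pairs of tumours. IL-15 tumour 2 and control tumour 4, close in UGT2B17, stood at 42.5% (41.05% to 43.9%) and 31.9% (30.3% to 33.5%). Reads without molecular identifiers are not independent molecules, so these intervals cover counting error only and separate intervals are no test of a difference between tumours. UGT2B28 held 29.5%, 28.1%, 14.8%, 17.4% and 75% of its reads with UGT2B11 in IL-15 tumours, and 28.4%, 21.4%, 44.4%, 64.1% and 42.9% in control tumours. The 75% is 3 of 4 reads, whereas the 64.1% of control tumour 4 had an interval of 48.4% to 77.3%.

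**Figure D4:**
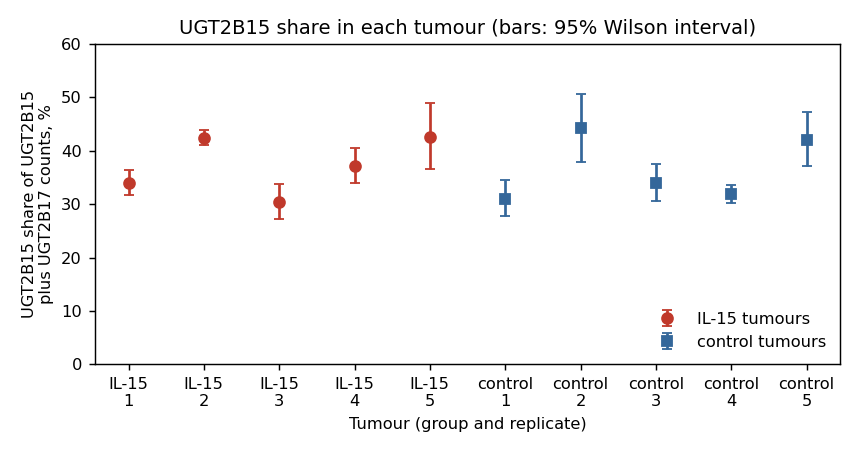
The vertical axis gives the share of UGT2B15 in the reads of UGT2B15 plus UGT2B17 in percent, with a point per tumour and bars for 95% Wilson intervals. The shares run from 30.4% to 44.2%, both groups cover the same range, and 21 of 45 pairs of tumours have intervals that do not touch.

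Because androgen is known to repress UGT2B15 and UGT2B17 in LNCaP, the members were set beside the mean log2 CPM of 18 androgen-induced genes, such as KLK3, KLK2 and TMPRSS2. No relation of this score with a tested member passed the threshold. Its r ran from -0.02 with UGT2B10 to 0.30 with UGT2B11 (adjusted permutation p from 0.645 to 0.954), with 0.17 for UGT2B17 and 0.23 for UGT2B15.

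Properties of the libraries were set beside the members in 25 further relations. Total count had r = 0.67 with UGT2B17, 0.74 with UGT2B15 and 0.89 with UGT2B10 (adjusted permutation p = 0.267, 0.212 and 0.0335), and rho = 0.44, 0.48 and 0.58 (adjusted permutation p = 0.845, 0.824 and 0.737). Without IL-15 tumour 2 and control tumour 4, r was -0.01, -0.13 and 0.48. Summed T cell markers had r from -0.43 with UGT2B28 to 0.17 with UGT2B17 (adjusted permutation p from 0.862 to 0.966), and IL-15 tumour 2 and control tumour 4 were at 5.21 and 3.90 CPM of T cell markers, the lowest of the IL-15 tumours and the median of the control tumours. Summed hepatocyte markers had r = 0.56 and rho = 0.71 with UGT2B17. With UGT2B15 they had r = 0.52 and rho = 0.60 (adjusted permutation p for both genes from 0.586 to 0.737). Their r was 0.27 or less with UGT2B10, UGT2B11 and UGT2B28. This sum was mostly TTR, with 991 counts, against 73 for APOA1 and 36 for ALB, the next highest markers. The correlations therefore mostly follow TTR, and the hepatocyte markers without TTR were not tested. Without the 2 tumours of highest total the log2 fold change was 0.75 for UGT2B17, 0.69 for UGT2B15, -0.37 for UGT2B10, -1.05 for UGT2B11 and -1.26 for UGT2B28, and none passed (edgeR adjusted p from 0.569 to 0.818).

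**Figure D5:**
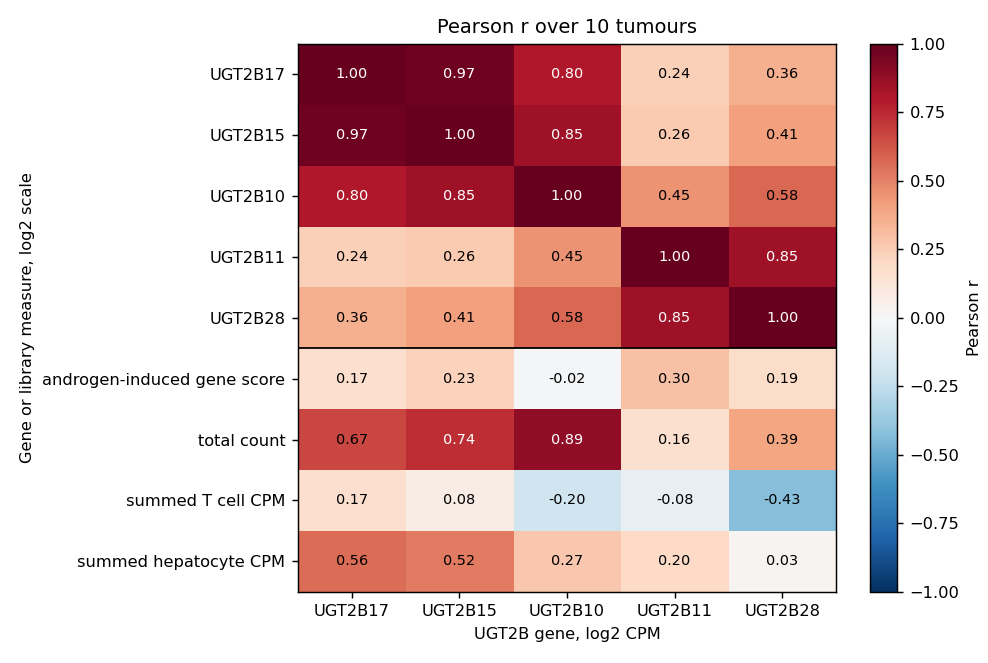
Each cell gives the Pearson r over 10 tumours between a UGT2B gene (columns) and another UGT2B gene, the androgen-induced score or a library measure (rows), on log2 scales. UGT2B17, UGT2B15 and UGT2B10 share high values, UGT2B11 and UGT2B28 have 0.85 with each other, and the androgen-induced score stays between -0.02 and 0.30.

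Around the cluster, few genes were measured. Of 38 other genes between the outermost members, 0 passed the filter. Within 500 kb on either side 3 further genes did, UBA6-AS1, YTHDC1 and TMPRSS11E, all on the UGT2B17 side. TMPRSS11E, a membrane serine protease gene, ends 39.6 kb from UGT2B17. It had 2.21, 5.90, 2.43, 1.22 and 0.441 CPM in IL-15 tumours and 1.22, 0.706, 1.03, 10.8 and 3.22 CPM in control tumours. As for UGT2B17, IL-15 tumour 2 and control tumour 4 were the highest of their groups.

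The correlation of TMPRSS11E with UGT2B17 was r = 0.79 and rho = 0.75 (permutation p = 0.00671 and 0.0181, adjusted 0.0403 and 0.104 over 6 relations with neighbours). Without IL-15 tumour 2 and control tumour 4, r was 0.51. YTHDC1, which encodes a reader of methylated adenosine in RNA, had r = 0.72 and rho = 0.68 with UGT2B17 (permutation p = 0.0214 and 0.0345, adjusted 0.0563 and 0.104). UBA6-AS1, an antisense RNA gene, had r = 0.43 with UGT2B17. With UGT2B11, UBA6-AS1 had r = 0.67 and rho = 0.61 (permutation p = 0.0282 and 0.0668, adjusted 0.0563 and 0.134), and r = 0.22 without IL-15 tumour 5 and control tumour 2. YTHDC1 had r = 0.30 and TMPRSS11E r = 0.06 with UGT2B11. These neighbours were taken by position after values had been seen.

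By likeness of pattern, measured as Pearson r of log2 CPM over 10 tumours among 10745 protein-coding genes of at least 5 CPM, the genes nearest to UGT2B17 were PDS5B (0.95), KCNS3 (0.94) and MPHOSPH8 (0.92). Nearest to UGT2B15 were DAPL1 (0.94), PDS5B (0.93) and PRPS2 (0.92). METTL7A (0.96), COL4A2 (0.94) and RBBP4 (0.94) were nearest to UGT2B10, SEMA3G (0.92), PKDCC (0.88) and SNAPC5 (0.87) to UGT2B11, and ENPP1 (0.88), AP5M1 (0.86) and TFB2M (0.83) to UGT2B28. UGT2B17 and UGT2B15 had PDS5B in common, and neither shared any of these names with UGT2B11 or UGT2B28. Since UGT2B17 and UGT2B15 had r = 0.97 with each other, this restates the correlations among members and is no separate result. Being the highest of many, the r values of the named genes have no p.

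Few counts were assigned to other transferases. Of 9 further rows with a symbol starting UGT2, 7 had counts, 131 in all. UGT2A3 had 28 counts and UGT2A1 5. The 5 UGT2B pseudogenes had 98 counts together, the most from UGT2B27P with 43, UGT2B29P with 27, UGT2B25P with 14, UGT2B24P with 9 and UGT2B26P with 5. No pseudogene exceeded 17 counts in a library. The 13 UGT1A rows, a locus that also glucuronidates bilirubin, had 86 counts and at most 0.04997 mean FPKM. Of the 15 genes listed for UGT1A, UGT2A and related transferases, 0 passed the filter. The protein-coding UGT1A genes overlap one another in position, and so do UGT2A1 and UGT2A2. How reads in shared stretches were counted is not stated, so these counts may understate those transferases.

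Of the steps that feed the UGT2B enzymes, 0 of 8 tested genes of UDP-glucuronate supply and transport passed, with 3 above and 5 below 0 and a median log2 fold change of -0.05, against -0.01 over all tested genes. UGDH, which makes UDP-glucuronate, averaged 49.7 ± 15.7 CPM in IL-15 tumours and 54.5 ± 7.6 CPM in control tumours. UGP2, which makes UDP-glucose, averaged 40.6 ± 11.9 CPM in IL-15 tumours and 34.9 ± 5.8 CPM in control tumours. SLC35D1, a carrier of UDP-glucuronate into the endoplasmic reticulum, had 20 counts and did not pass the filter.

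Of deconjugation and efflux, 3 of 7 genes were tested and 0 passed, with 1 above and 2 below 0 and a median of -0.06. GUSB, the lysosomal enzyme that splits glucuronides, averaged 127 ± 8.7 CPM in IL-15 tumours and 106 ± 17.9 CPM in control tumours (log2 fold change 0.26 ± 0.13, edgeR adjusted p = 0.774). The exporter ABCC1 averaged 124 ± 25.3 CPM in IL-15 tumours and 150 ± 14.0 CPM in control tumours (log2 fold change -0.27 ± 0.15, edgeR adjusted p = 0.775). The exporter ABCC4 averaged 244 ± 93.2 CPM in IL-15 tumours and 255 ± 114 CPM in control tumours.

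Of 18 genes listed for other androgen inactivation, 8 were tested and 0 passed, with 5 above and 3 below 0 and a median of 0.37. The list also holds enzymes known to work the other way, such as HSD17B6, which oxidises androstanediol back to dihydrotestosterone, and STS, which frees androgen precursors from their sulphates. HSD17B6 averaged 3.15 ± 0.94 CPM in IL-15 tumours and 1.59 ± 0.60 CPM in control tumours (log2 fold change 0.98 ± 0.33, edgeR adjusted p = 0.758). HSD17B14 had a log2 fold change of 0.87, RDH5 of 0.79 and the steroid sulphotransferase SULT2B1 of -0.52, each with an edgeR adjusted p of at least 0.758. The 4 AKR1C genes, which encode steroid reductases, had between 1 and 22 counts and were not tested.

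Of androgen synthesis, 5 of 10 genes were tested and 0 passed, with 2 above and 3 below 0 and a median of -0.19. SRD5A1, which makes dihydrotestosterone, averaged 46.2 ± 8.7 CPM in IL-15 tumours and 46.2 ± 17.3 CPM in control tumours. CYB5A, a cofactor of androgen synthesis, averaged 339 ± 68.1 CPM in IL-15 tumours and 409 ± 50.8 CPM in control tumours (log2 fold change -0.27, edgeR adjusted p = 0.779).

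Of 22 regulators listed for UGT2B genes, 21 were found and 13 tested. None passed, with 5 above and 8 below 0 and a median of -0.09. The pioneer factor FOXA1 averaged 489 ± 99.9 CPM in IL-15 tumours and 428 ± 148 CPM in control tumours. VDR, the vitamin D receptor, averaged 30.6 ± 7.6 CPM in IL-15 tumours and 42.2 ± 11.3 CPM in control tumours (log2 fold change -0.46, edgeR adjusted p = 0.766). The liver factor HNF4A had 14 counts and was not tested.

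All 18 androgen-induced genes were tested and 0 passed, with 13 above and 5 below 0 and a median of 0.16. KLK3 averaged 5584 ± 1336 CPM in IL-15 tumours and 4743 ± 1071 CPM in control tumours. KLK4 averaged 254 ± 32.7 CPM in IL-15 tumours and 382 ± 78.1 CPM in control tumours (log2 fold change -0.59 ± 0.16, edgeR adjusted p = 0.758).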

How the data were processed

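Tumour RNA was isolated with TRIzol for Illumina sequencing, per the labels' protocols. Tools named by the submitters' processing notes, without their roles, are GATK 4.1.1.0, DESeq2 1.20.0, featureCounts 1.5.0-p3, HISAT2 2.0.5 and fastp, with hg38. No source used here states the strandedness, the annotation release or any removal of mouse reads. The labels name mouse as organism, but the deposited tables hold human genes. The deposited counts are whole reads per gene. The deposited FPKM divide them by gene length and a library total of unstated making. A deposited table of group means was left out.

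CPM were scaled by TMM. Genes passing filterByExpr (minimum count 10) were fitted with edgeR 4.0.16 (R 4.3.3, robust quasi-likelihood, common biological coefficient of variation 0.306) and adjusted by Benjamini-Hochberg over 16913 genes. Alternatives used other scalings and filters, DESeq2 1.42.0, limma 3.58.1 on counts or FPKM, a replicate block, and fits lacking 1 library at a time. Correlations used log2 CPM (prior count 2) and 100000 permutations. No source says that tumours came from separate cell donors, so p-values cover only the spread between these samples, which may be technical.

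The members and lists were chosen with earlier results of these data known. Named genes are all members, other UGT2 rows with counts, up to 4 genes of smallest p per list with FOXA1, KLK3, UGDH and GUSB, and the 3 genes most alike to each member. SRD5A1, SLC35D1, the AKR1C genes, HNF4A and the genes most opposed to a member are outside this rule and were chosen after values were seen. Relations with library measures and neighbours, and the fit without the 2 libraries of highest total, were added after seeing the data. Some results of the planned genes and relations are not reported here, but p-values stay adjusted over the full set of relations.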

Additional observations from a re-analysis of the deposited data

Results flagged for a closer look

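A tumour stood apart from the 4 others of its group in 6 of 14 groups of CPM values. The measure was the gap to its nearest neighbour over the group's range (Dixon, critical value 0.71 for 5 samples). That critical value flags about 1 in 20 groups of normally distributed values, which CPM values need not be. No excess over chance is therefore claimed. In IL-15 tumours, UGT2B10 was 17.4 CPM in tumour 2 and UGT2B7 was 1.86 CPM in tumour 2, and UGT2B4 was 3.01 CPM in tumour 4. In control tumours, tumour 4 had 124.6 CPM of UGT2B17, 58.3 CPM of UGT2B15 and 6.51 CPM of UGT2B10. On the log2 scale 1 of the 6 stood apart, UGT2B10 in control tumour 4. The flags are not independent, since 5 of the 6 fall in IL-15 tumour 2 and control tumour 4, which also had the highest total counts. The part of total count in these levels was not tested beyond the correlations given above.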

How the results depend on the processing

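No alternative brought a UGT2B gene past the threshold, and the smallest adjusted p of the 5 tested genes was 0.569. The log2 fold change of UGT2B10 reversed to -0.24 with limma voom, -0.19 with FPKM (pseudocount 0.1), -0.23 with a replicate block and -0.37 without the 2 tumours of highest total count. That of UGT2B11 reversed to 0.20 with voom, 0.15 with FPKM (pseudocount 0.1) and 0.18 with a replicate block, and the cause was not tested. With tumours left out in turn, UGT2B17 ran from -0.20 to 1.38, UGT2B15 from -0.12 to 1.57, UGT2B10 from -1.17 to 1.64, UGT2B11 from -0.79 to 0.68 and UGT2B28 from -1.28 to -0.16. The IL-15 minus control difference ran from 0.0145 to 0.767 CPM for UGT2B4 and from -0.17 to 0.291 CPM for UGT2B7. Called genes numbered 1 without the low-count filter and 7 with DESeq2, which gave UGT2B10 no adjusted p.

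With the replicate block UGT2B17 was 0.42, UGT2B15 0.47 and UGT2B28 -0.56, with 0 calls. Deviations of same-numbered tumours correlated at 0.26, 0.01, -0.17, -0.22 and -0.08, and the main fit assumed no pairing. These values cannot tell whether same-numbered tumours shared a cell donor or handling, which was not tested.

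Without the 2 tumours farthest from the median, r was 0.49 for UGT2B17 with UGT2B10, 0.46 for UGT2B15 with UGT2B10 and 0.77 for UGT2B11 with UGT2B28. It was -0.21 for UGT2B10 with UGT2B11 and 0.18 for the androgen-induced score with UGT2B10. The score with UGT2B10 was 0.00523 centred within groups. Scalings moved the median of all genes by at most 0.08. Depth limits UGT2B4, UGT2B7 and the lower values of UGT2B10, UGT2B11 and UGT2B28, which rest on a few reads.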

Other observations

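The genes whose levels ran most opposite to each UGT2B gene over the 10 tumours were looked up after the most alike genes had been seen. They are given as values, with no p, since they are the lowest of 10745 correlations. For UGT2B17 they were ZNF407 (r = -0.94), PHLDA3 (-0.90) and ERCC2 (-0.87). For UGT2B15 they were ZNF407 (-0.92), MAPKBP1 (-0.90) and C14orf93 (-0.87). UGT2B10 had SH2B2 (-0.92), DBNL (-0.92) and GRIN1 (-0.92). UGT2B11 had SLC3A2 (-0.94), a subunit of amino acid transporters, CCDC183 (-0.93) and PPP1R15A (-0.91), a regulatory subunit of the phosphatase acting on eIF2. UGT2B28 had CBR3 (-0.98), a carbonyl reductase, and UAP1L1 (-0.93). ZNF407 was the gene in common between UGT2B17 and UGT2B15, which restates their correlation with each other and is no separate result.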
